A study of Mus musculus with 10 samples.

Results

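The extracellular proteases and inhibitors described here are the protein-coding genes of the deposited expression table whose symbols begin with Mmp, Adamts, Adamtsl or Timp followed by a digit. The rule uses symbols and biotype alone, with no measured value, but it was chosen with earlier results of these data known. It takes 46 of 24888 genes, namely 18 matrix metalloproteinase (Mmp), 19 Adamts, 5 Adamts-like (Adamtsl) and 4 Timp genes. They were measured by poly(A) RNA sequencing of whole hearts from 10 mice. In 5 hearts SPOP, the substrate adaptor of a cullin ubiquitin ligase, was overexpressed by means of Cre recombinase driven by the alpha-myosin heavy chain promoter (SPOP_CKI). The 5 controls carried the same Cre transgene alone (genotype Myh6Cre, titled wild type, here Cre_control), so all 10 hearts carry Cre. This promoter is active in cardiomyocytes, whereas RNA was taken from all cells of the heart. The labels give male sex for every mouse, and the design text an age of 8 to 10 weeks and sham conditions. The comparison asks how the transcripts of the matrix-degrading system differ between the 2 genotypes.

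Matrix metalloproteinases are zinc-dependent enzymes that cleave collagens, gelatin, proteoglycans and many secreted proteins, and most are made as inactive precursors. Tissue inhibitors of metalloproteinases (TIMPs) bind the active site of these enzymes, and Timp4 is known for its high expression in heart. ADAMTS enzymes are secreted relatives that carry thrombospondin repeats. Some cleave proteoglycans such as versican and aggrecan, others trim procollagens, and ADAMTS-like proteins keep the repeats but lack the protease domain and bind the fibrillin network. In heart much of this system is made by fibroblasts, endothelium and immune cells, and it is best known for matrix turnover after injury and overload.

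Values are scaled reads, which are read counts that the authors divided by a size factor for each library, at a depth of 15316293 to 17114869 reads. Spop stood at 25308 to 40631 in SPOP_CKI and 3078 to 3726 in controls, as labelled. SPOP_CKI 3 stood apart, with reads for 13167 genes against 18531 to 20806 in the other libraries. Control 5, SPOP_CKI 1 and SPOP_CKI 3 had 4491 to 6578 scaled reads of Xist and 0 of the Y-linked genes Ddx3y, Eif2s3y, Kdm5d and Uty, which goes against their male label. Results are therefore also given without SPOP_CKI 3 and without these 3 libraries. Summed markers of cardiomyocytes stood at 364311 to 652937 in SPOP_CKI and 605839 to 799315 in controls. In the test described below, 4 of 10 of them fell, beside 12.3% of all genes tested (3 to 6 with single libraries left out). These were Tcap, Myh6, Tnni3 and Myl3. Actc1 rose, 1 of 10 beside 10.0% of all genes (0 without control 3 or 4 or without SPOP_CKI 1 or 4). Tnnt2, Ryr2, Ttn, Myl2 and Actn2 were not called. Postn, a gene of activated fibroblasts, was at 14247 and 27145 in SPOP_CKI 2 and 4, at 1045 to 2405 in the other SPOP_CKI hearts and at 423 to 1012 in controls.

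Of the 46 genes, 38 reached 10 scaled reads or more in 5 or more libraries and were tested (limma on log2(value + 1), Benjamini-Hochberg adjusted p under 0.05 over all 14212 genes tested). The differences are given as SPOP_CKI minus control on the log2 scale. The test called 8 of the 38 (21.1%), beside 22.3% of all genes tested. Higher were 3 (7.89%, beside 10.0% of all genes), namely Adamtsl2, Adamtsl3 and Adamts19. Lower were 5 (13.2%, beside 12.3%), namely Timp4, Adamts5, Mmp28, Adamts7 and Adamtsl4. The share called was thus close to that of the transcriptome in both directions, and the median difference of the 38 was 0.16 on the log2 scale against −0.11 for all genes. For none of the 38 did all 5 SPOP_CKI hearts exceed all 5 controls, beside 9.01% of all genes. For 7 (18.4%, beside 12.3% of all genes) every SPOP_CKI heart lay below every control: Timp4, Mmp11, Mmp28, Adamts5, Adamts7, Adamts17 and Adamtsl4. Adamts17 passed the filter on low values only through the controls, so its place among them says little. Leaving out single libraries moved both counts: 0 were higher without control 1, 2, 3 or 4 (beside 6.36% to 7.59% of all genes) or without SPOP_CKI 2 (9.24%), 1 without SPOP_CKI 4 (7.60%) and 5 without SPOP_CKI 5 (10.6%). Lower were 2 without any 1 of the 5 controls (beside 7.39% to 9.51%) and 3 without SPOP_CKI 2 (11.1%).

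Other tests called more genes higher than this one. On reads recovered from the scaled values, edgeR called 7 of 38 higher (beside 11.8% of all genes) and 4 lower (beside 10.4%). DESeq2 called 10 of 41 higher (beside 11.7%) and 5 lower (beside 11.4%). Without SPOP_CKI 3 limma called 12 of 38 higher (beside 13.7%) and 6 lower (beside 17.4%). Without the 3 libraries with Xist reads, which leaves 3 SPOP_CKI hearts and 4 controls, 11 of 34 were higher (beside 13.9%) and 5 lower (beside 17.1%). Genes that these settings add as higher are Timp1, Mmp3, Mmp19, Adamts2 and Adamts4, which DESeq2 and both subsets call. Some of these settings also call Mmp12, Mmp13, Mmp14, Adamts12, Adamts20 and Adamtsl5 higher. Mmp11 was added as lower in both subsets (−0.81 without SPOP_CKI 3 and −0.74 without the 3 libraries with Xist reads). Timp4 and Adamts5 were called by limma as described and in all 22 alternatives, whereas the other 6 calls were each lost in some.

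**Figure D1:**
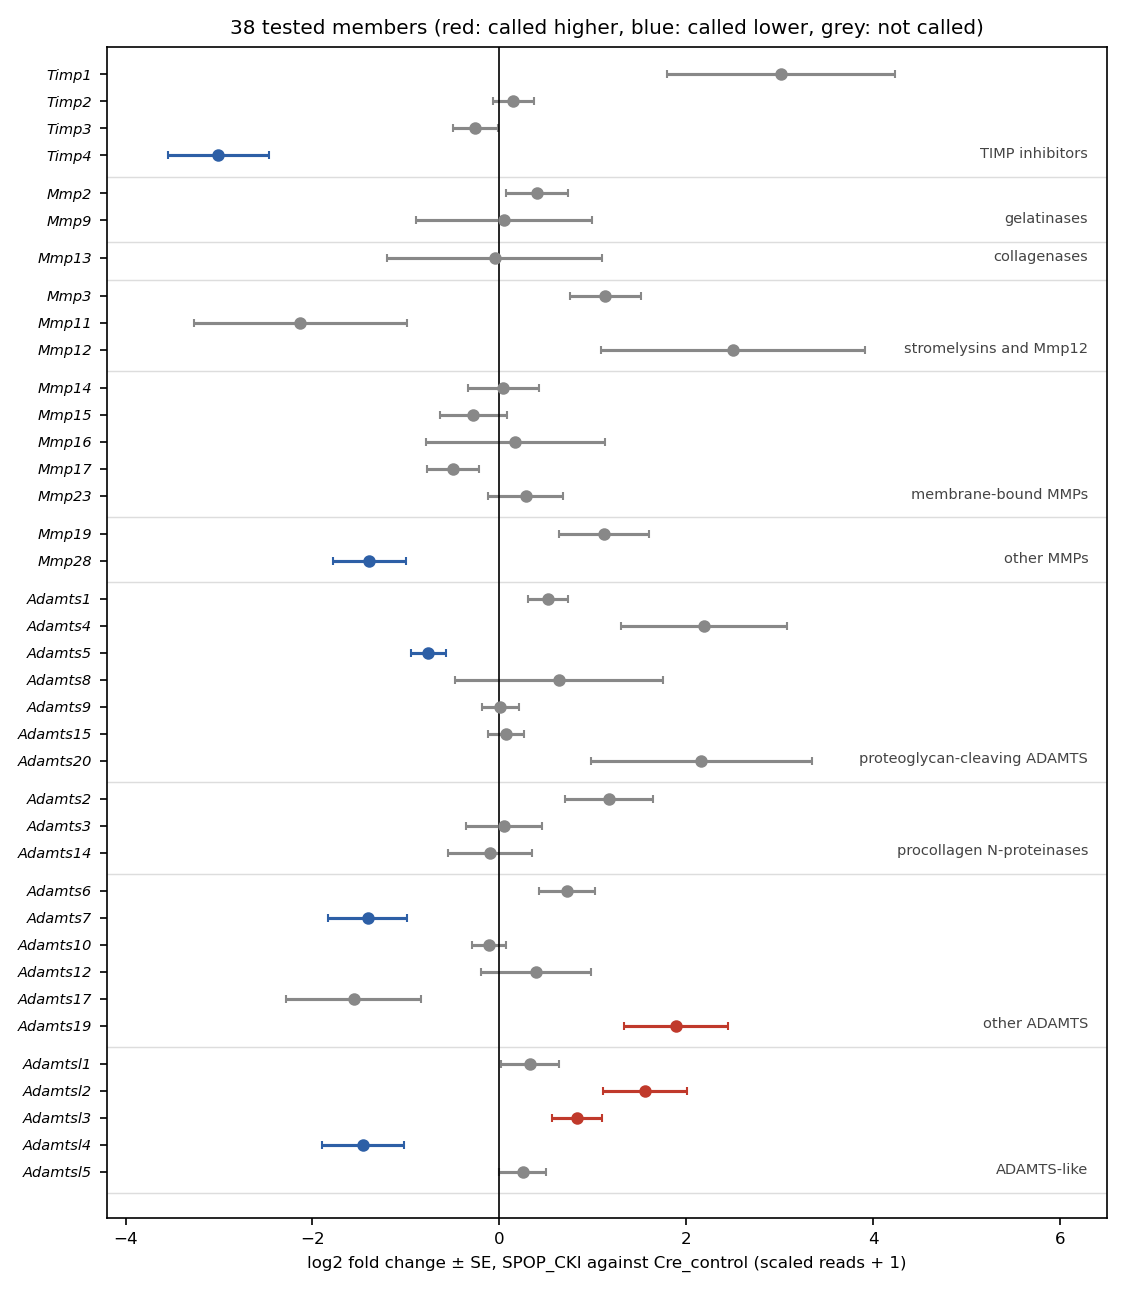
Log2 fold change of SPOP_CKI against control (x axis, on scaled reads + 1) for the 38 tested genes, in rows grouped by role, with bars of 1 SE. The 3 genes called higher are red and the 5 called lower are blue, and the long bars of Timp1 (SE 1.22) and Mmp12 (SE 1.41) go with large differences that did not pass.

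The inhibitors came first in level. Per kilobase of gene length, Timp2 (804), Timp3 (548) and Timp4 (506 scaled reads per kilobase) had the highest control levels of all 46 genes, followed by Mmp2 at 470, and Timp1 stood at 54.1. The SDs of Timp3 (151) and Timp4 (99.0) exceeded the gap between these means and the 470 ± 65.3 of Mmp2, so the order from Timp3 to Mmp2 was within the spread of the 5 controls. In SPOP_CKI hearts Timp1 averaged 2136 ± 3557, Timp2 938 ± 377, Timp3 453 ± 103 and Timp4 83.7 ± 63.5 per kilobase (SD, n = 5).

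Timp4 (ENSMUSG00000030317, mm10 chromosome 6, 115241892 to 115252205, minus strand) showed the largest fall of the 38. Its scaled reads were 1035, 100, 185, 536 and 612 in SPOP_CKI 1 to 5 and 2589, 2501, 3110, 3939 and 2775 in controls 1 to 5. Every SPOP_CKI heart lay under every control, and the lowest control was 2.42-fold above the highest SPOP_CKI heart. The difference was −3.01 (SE 0.54, adjusted p = 0.00369), or 8.08-fold lower, and the means of 494 ± 374 and 2983 ± 583 differed 6.04-fold. In whole hearts, fewer cells of a type and less RNA per cell cannot be told apart, for this and every gene below. The difference was −2.77 without SPOP_CKI 3 (adjusted p = 0.00601) and −3.22 without the 3 libraries with Xist reads (adjusted p = 0.00440). Over all leave-one-out fits it ranged from −3.39 to −2.55 (adjusted p 0.00183 to 0.0127). Timp4 lies within Syn2, on the opposite strand, and shares 90 exonic bases with it in GENCODE M21. Syn2 itself was at 142 to 250 in controls and 0 to 80.2 in SPOP_CKI, and since the strand setting of the counting is not given, reads from the shared bases cannot be assigned.

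Timp1 (ENSMUSG00000001131, chromosome X, 20870166 to 20874735), the inducible inhibitor of the family, went the other way in some hearts. It stood at 152, 7387, 40.3, 1817 and 88.6 in SPOP_CKI 1 to 5 and at 44.6, 74.0, 35.1, 30.8 and 55.7 in controls 1 to 5. SPOP_CKI 2 and 4 were far above all other hearts, SPOP_CKI 1 and 5 were also above the highest control, and SPOP_CKI 3 was among the controls. The group means differed 39.5-fold, yet the difference of 3.01 (SE 1.22) did not pass in limma (adjusted p = 0.0972). It passed in edgeR (5.31, adjusted p = 0.0146), in DESeq2 (5.30, adjusted p = 1.26e-04), without SPOP_CKI 3 (3.81, adjusted p = 0.0379) and without the 3 libraries with Xist reads (4.58, adjusted p = 0.0227). Without SPOP_CKI 2 it was 1.94. Timp1 lies inside Syn1, which shares no exonic base with it and had 0 to 26.4 scaled reads in every library.

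Timp2, which inhibits metalloproteinases and also takes part in the activation of Mmp2 at the cell surface, was at 3177, 3486, 2652, 6215 and 2743 in SPOP_CKI 1 to 5 and at 3007 to 3354 in controls. Only SPOP_CKI 4 stood far outside the control range (difference 0.15, SE 0.22, adjusted p = 0.645). Timp3, which stays bound to the matrix and also inhibits ADAM17 and aggrecanases, was at 2476, 4835, 3901, 3606 and 3613 in SPOP_CKI and at 3540, 2845, 4864, 5282 and 5794 in controls. The groups overlapped (difference −0.26, SE 0.24, adjusted p = 0.439), and Timp3 shares 1733 exonic bases with Syn3 on the opposite strand (Syn3 at 3.18 to 34.2 in all libraries). Thus 1 of the 4 inhibitor genes fell and the others did not pass.

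The make-up of the inhibitor pool therefore differed between hearts. Dividing each gene by its length, Timp4 made up 26.4% ± 3.32 of the summed Timp signal in controls and 4.91% ± 4.83 in SPOP_CKI (SD, n = 5), with 12.0%, 0.173%, 2.54%, 2.18% and 7.68% in SPOP_CKI 1 to 5 and no less than 22.4% in any control. Timp1 made up 11.7%, 84.7%, 3.67%, 49.0% and 7.38% in SPOP_CKI 1 to 5 and 1.63% to 5.07% in controls. These Timp1 shares rest on the division by its short length: without it they were 46.7% in SPOP_CKI 2, 14.9% in SPOP_CKI 4, and 0.251% to 0.872% in controls. The summed signal was 1645 to 2123 per kilobase in controls. It was 9824 in SPOP_CKI 2 and 4175 in SPOP_CKI 4, above all controls, and 1466, 1236 and 1351 in SPOP_CKI 1, 3 and 5, below all of them. The ratio of the summed Mmp signal to the summed Timp signal, per length, was 0.613 ± 0.144 in controls and 0.641 ± 0.313 in SPOP_CKI, with 0.190 in SPOP_CKI 2 and 0.999 in SPOP_CKI 5 as its extremes. These sums are descriptions of transcripts, given with no test.

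**Figure D2:**
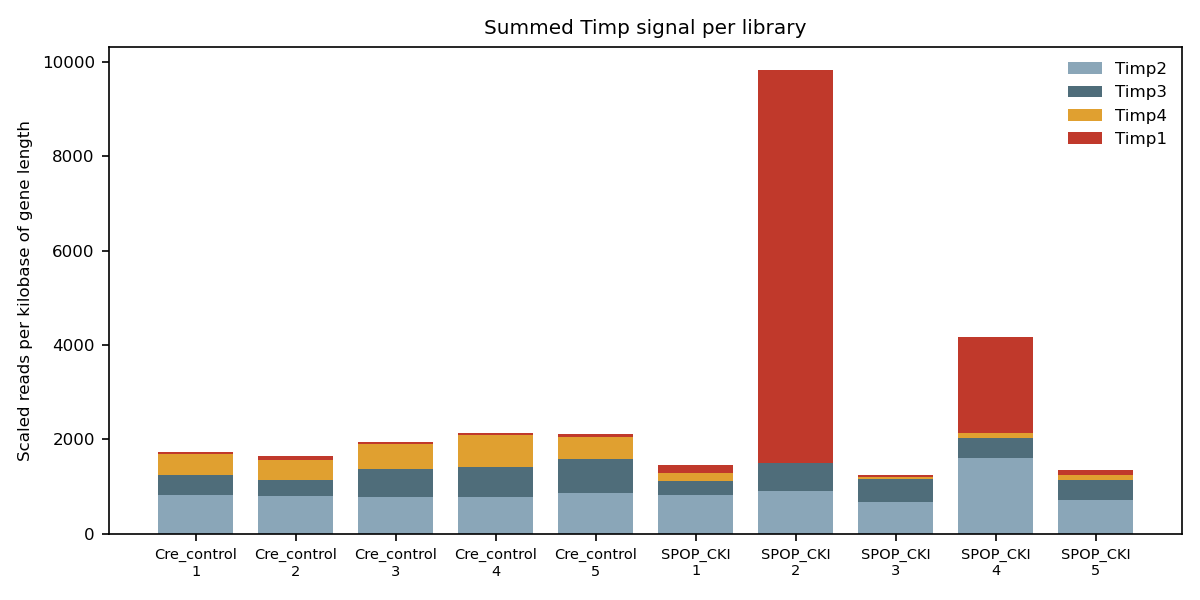
Summed signal of the 4 Timp genes in each library (y axis, scaled reads per kilobase of gene length; x axis, the 10 libraries), stacked by gene. Timp4, about 26.4% of the sum in controls, is a thin band in the SPOP_CKI hearts, and Timp1 fills 84.7% of the bar of SPOP_CKI 2 and 49.0% of that of SPOP_CKI 4 (46.7% and 14.9% without division by length).

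Neither gelatinase passed. Mmp2, which cleaves denatured collagen and basement membrane, was the most abundant metalloproteinase per length and made up 40.9% ± 2.78 of the summed Mmp signal in controls and 44.3% ± 5.84 in SPOP_CKI. It stood at 1941, 2642, 997, 4539 and 1691 in SPOP_CKI 1 to 5 and at 1387 to 1898 in controls, so that SPOP_CKI 1, 2 and 4 lay above all controls and SPOP_CKI 3 below them (difference 0.40, SE 0.33, adjusted p = 0.385, and 0.0149 with array weights). Mmp9, the gelatinase of leukocytes, rested on few reads, at 10.8, 27.3, 0, 55.8 and 15.4 against 7.69 to 16.1 (difference 0.05, SE 0.94, adjusted p = 0.976). Its sign turned with a pseudocount of 0.5, and that of Mmp9, Mmp14 and Timp2 with single libraries left out. The collagenase gene Mmp13 was at 1.81, 72.7, 0, 39.2 and 52.0 against 5.67 to 21.1 (difference −0.05, SE 1.15, adjusted p = 0.978). Without the 3 libraries with Xist reads it was called higher (1.89, adjusted p = 0.0169). Mmp8, the neutrophil collagenase, stayed below the expression threshold, at 0 to 33.1 in SPOP_CKI and 0 to 4.24 in controls.

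Stromelysins cleave a broad range of matrix proteins and can activate other precursors. Mmp3 (ENSMUSG00000043613, chromosome 9, 7445822 to 7455975) stood at 332, 809, 311, 803 and 273 in SPOP_CKI 1 to 5 and at 181, 303, 153, 135 and 319 in controls. The highest were again SPOP_CKI 2 and 4, SPOP_CKI 1 was just above the highest control, and SPOP_CKI 3 and 5 lay in the control range. The difference of 1.13 (SE 0.38) missed the threshold in limma (adjusted p = 0.0520) and passed in edgeR (1.23, adjusted p = 0.0370) and DESeq2 (1.21, adjusted p = 0.0135), and in limma without control 5, SPOP_CKI 3 or SPOP_CKI 5 (adjusted p 0.0279 to 0.0473). Mmp12, the macrophage elastase, described here because of its values, was at 37.0, 239, 0, 141 and 9.45 against 0 to 12.7 (difference 2.50, SE 1.41, adjusted p = 0.219) and passed in DESeq2 (3.79, adjusted p = 0.0428). Mmp11, a stromelysin of stromal cells, was at 84.9, 107, 0, 92.4 and 103 against 145 to 205, with every SPOP_CKI heart below every control. Because of the 0 in SPOP_CKI 3 its difference of −2.13 had an SE of 1.14 (adjusted p = 0.196), and without that library it was −0.81 and passed (adjusted p = 0.00643). Mmp11 shares 155 exonic bases with Chchd10 on the opposite strand, a gene at 1737 to 5086 in SPOP_CKI and 4445 to 7088 in controls. Mmp10 had 4.96 and 2.61 scaled reads in SPOP_CKI 2 and 4 and 0 in the other 8 libraries.

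Among the 46 genes, Mmp13, Mmp12, Mmp3, Mmp10, Mmp8 and Mmp27 follow one another on chromosome 9, between 7272514 and 7581885. Mmp1b, which overlaps Mmp12 on the opposite strand, had no values here and is not in the sums. Their summed scaled reads were 379, 1147, 311, 1022 and 346 in SPOP_CKI 1 to 5 and 161 to 339 in controls, and without Mmp3, which dominates the sum, 46.1, 339, 0, 219 and 73.2 against 10.2 to 38.2. On both sums SPOP_CKI 2 and 4 were the highest. The promoter ends of 3 of these genes are shown because they carry the same pair of motifs, TGANTCA, the site bound by AP-1, and TATAAA. They were picked after their values were seen. RefSeq promoters (GRCm38.p6) of 31 of the 46 genes, in 33 windows of 250 bases before the start, were searched on both strands. Of these 33 windows, TGANTCA was in 4, beside 6.75% of all promoters, and TATAAA in 5, beside 12.4% of all promoters. GGGCGG, the core of the Sp1 site, was in 20, beside 32.7% of all promoters. Some windows lay partly or wholly inside the gene, among them the Mmp12 window with 1 of the TGANTCA matches. The last 100 bases before the start follow 5′ to 3′ with the motifs in capitals, for Mmp13 at chr9:7272414-7272513, Mmp3 at chr9:7445722-7445821 and Mmp10 at chr9:7502242-7502341, all on the plus strand.
Mmp13: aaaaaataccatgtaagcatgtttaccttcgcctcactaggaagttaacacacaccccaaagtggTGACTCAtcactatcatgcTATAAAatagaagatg
Mmp3: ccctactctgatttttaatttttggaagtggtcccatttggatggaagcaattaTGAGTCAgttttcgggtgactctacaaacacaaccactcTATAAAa
Mmp10: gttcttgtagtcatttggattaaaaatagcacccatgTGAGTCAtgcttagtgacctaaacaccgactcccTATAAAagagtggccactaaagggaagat
A match is a description of letters and not a measured site. The list of signals known to induce such genes (cytokines, AP-1, Ets, Runx and NF-kappaB subunits) had 0 of 17 tested genes called in limma, beside 22.3% of all genes. In this list 5 were called higher without SPOP_CKI 3 (beside 13.7%) and 1 lower without control 3 or SPOP_CKI 2 (beside 8.73% and 11.1%). The smallest p were those of Fos at −1.59 (adjusted p = 0.0658) and of Il1r1 at 0.66 (adjusted p = 0.0966).

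Of 7 membrane-anchored metalloproteinase genes 5 were tested and none was called. Mmp14, which sits in the plasma membrane and activates the Mmp2 precursor, was at 698, 1315, 243, 1145 and 844 in SPOP_CKI 1 to 5 and at 634 to 907 in controls (difference 0.04, SE 0.38, adjusted p = 0.952). SPOP_CKI 2 and 4 exceeded all controls, and SPOP_CKI 3 was below them. Without the 3 libraries with Xist reads Mmp14 was called higher (0.61, adjusted p = 0.0452). The differences of Mmp15, Mmp16, Mmp17 and Mmp23 lay between −0.50 and 0.28, with adjusted p of 0.223 to 0.909. Single settings moved 3 of them: Mmp16 was at 1.11 without SPOP_CKI 3 (adjusted p = 0.102), and Mmp15 at 0.66 (adjusted p = 0.280) and Mmp23 at 0.96 (adjusted p = 0.0647) with GC centring. Mmp24, at 0 to 8.26 in all 10 libraries, and Mmp25, at 0 to 33.9, stayed below the expression threshold.

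Among the remaining metalloproteinases, Mmp28 (ENSMUSG00000020682, chromosome 11, 83440768 to 83463071), known as epilysin, fell. It was at 103, 86.7, 42.0, 164 and 248 in SPOP_CKI 1 to 5 and at 255, 270, 262, 377 and 292 in controls. All SPOP_CKI hearts lay below all controls, SPOP_CKI 5 only just (difference −1.39, SE 0.39, adjusted p = 0.0269). The call was lost without any 1 of the 5 controls or without SPOP_CKI 2 (−1.44 to −1.30, adjusted p 0.0503 to 0.0731). It was also lost without the 3 libraries with Xist reads (−0.91, adjusted p = 0.0564) and after centring by GC content (−0.71, adjusted p = 0.113). Mmp28 shares 466 exonic bases with 1700020L24Rik on the opposite strand, which was at 0 to 26.0 in SPOP_CKI and 49.9 to 99.8 in controls. Mmp19, a secreted enzyme of basement membrane and other matrix substrates, was at 70.5, 246, 34.2, 120 and 70.9 against 27.6 to 60.1 (difference 1.12, SE 0.48, adjusted p = 0.110). It was above all controls in 4 of 5 SPOP_CKI hearts and passed in DESeq2 (1.41, adjusted p = 0.0199). Mmp19 shares 789 exonic bases with Tmem198b on the opposite strand, which was at 63.8 to 112 in SPOP_CKI and 87.9 to 153 in controls. Mmp27 was at 0 to 5.42 in all libraries and was not tested.

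**Figure D3:**
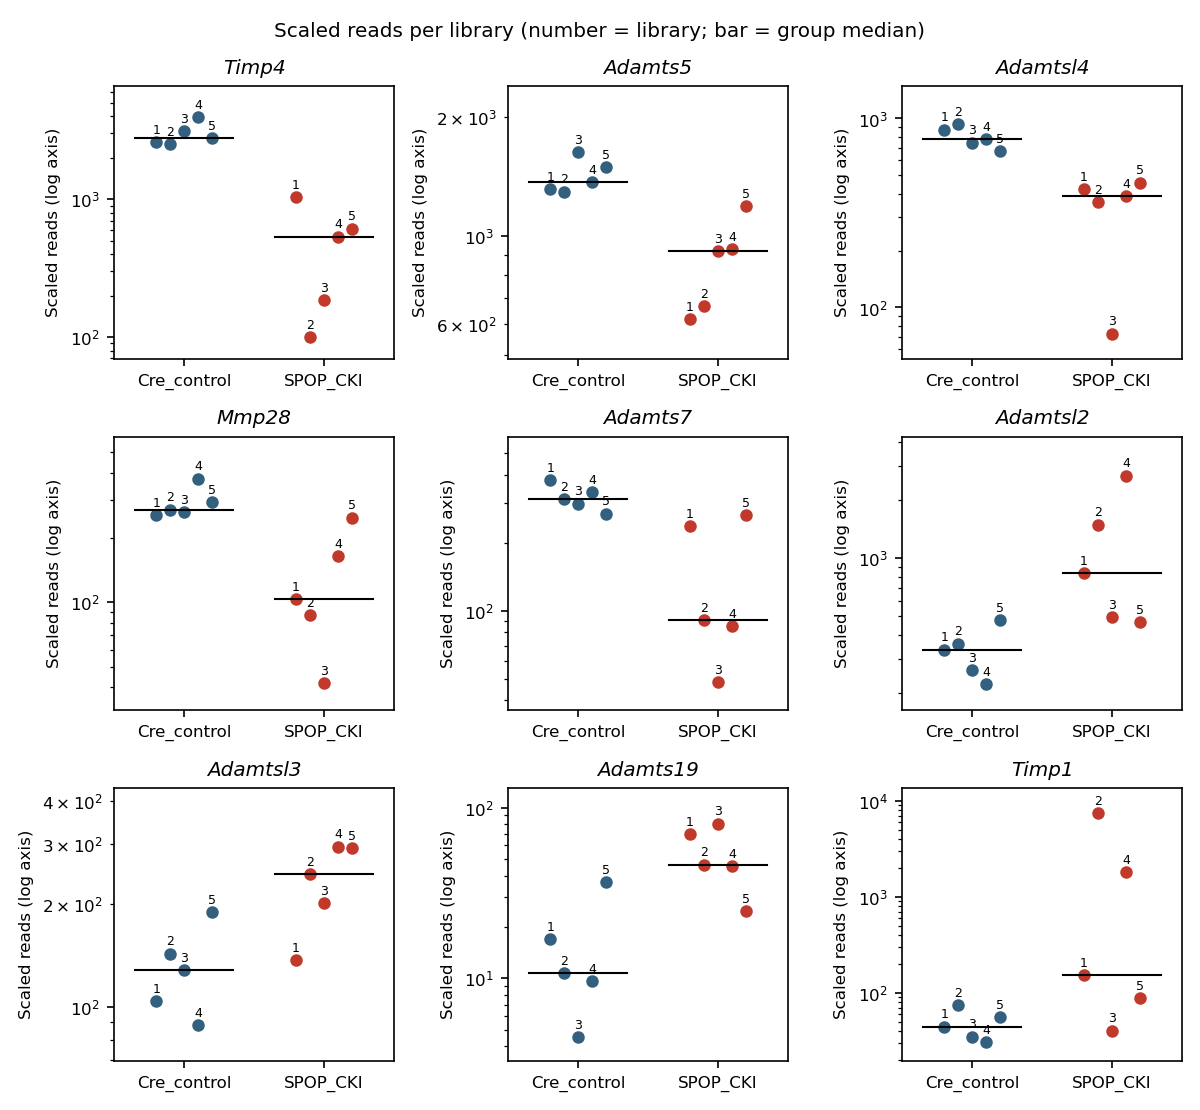
Scaled reads (log axis) of the 8 called genes and Timp1 in each of the 5 control and 5 SPOP_CKI libraries; points are numbered by library and bars are group medians. Timp4, Adamts5, Adamtsl4, Mmp28 and Adamts7 show no overlap between groups, while Timp1 spans 40.3 to 7387 among the SPOP_CKI hearts.

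ADAMTS enzymes that cleave versican, aggrecan and related proteoglycans number 7 here, and 1 of them fell, beside 12.3% of all genes. Adamts5 (ENSMUSG00000022894, chromosome 16, 85856173 to 85901828), an aggrecanase that also cleaves versican, was at 617, 666, 917, 929 and 1191 in SPOP_CKI 1 to 5 and at 1316, 1298, 1633, 1373 and 1497 in controls. Every SPOP_CKI heart lay below every control, although the highest of them, SPOP_CKI 5, was within 1.09-fold of the lowest control. The difference was −0.76 (SE 0.19, adjusted p = 0.0155), or 1.69-fold lower. It was −0.63 without the 3 libraries with Xist reads (adjusted p = 0.0442) and −0.79 without SPOP_CKI 3 (adjusted p = 0.00911).

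Adamts1 lies 53.1 kb from Adamts5 on the same strand and cleaves some of the same substrates. It was at 960, 1740, 1463, 1272 and 908 against 697 to 1069, above all controls in SPOP_CKI 2, 3 and 4, and did not pass (difference 0.52, SE 0.21, adjusted p = 0.0967, and 0.0496 without SPOP_CKI 5). Adamts4, the other main aggrecanase, was at 53.3, 595, 28.0, 256 and 53.1 in SPOP_CKI and at 5.31, 65.4, 23.8, 48.1 and 11.8 in controls. The values above the control range were those of SPOP_CKI 2 and 4. The difference of 2.19 (SE 0.89) did not pass in limma (adjusted p = 0.0973) and passed in edgeR (2.68, adjusted p = 0.0480) and DESeq2 (2.67, adjusted p = 0.0236). Without SPOP_CKI 2 it was 1.57 (adjusted p = 0.182). Adamts20 was at 20.8, 80.1, 0, 89.7 and 10.6 against 0.961 to 11.7 (difference 2.16, SE 1.18, adjusted p = 0.205) and passed in DESeq2 (3.25, adjusted p = 0.00884). Adamts8, Adamts9 and Adamts15 differed by 0.64, 0.01 and 0.07 (adjusted p 0.700 to 0.987). The Adamts8 value rested on single libraries, at 1.65 without SPOP_CKI 3 (adjusted p = 0.0834) and −0.02 without SPOP_CKI 2 (adjusted p = 0.994).

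Substrates and partners of this group were measured as a list of hyalectans, their link proteins, hyaluronan synthases and the hyaluronan receptor. Like the other lists here, it was chosen with earlier results of these data known. Of 12 genes 5 were tested, and 3 rose and 0 fell, with all libraries and in each leave-one-out fit. With all libraries, 10.0% of all genes were higher and 12.3% lower. Vcan, the versican core protein, was at 1218, 3378, 1406, 3574 and 1847 in SPOP_CKI 1 to 5 and at 157 to 376 in controls (difference 3.05, SE 0.36, adjusted p = 5.25e-04). Has2, a hyaluronan synthase, differed by 2.38 (adjusted p = 0.00475) and Cd44, the hyaluronan receptor, by 2.23 (adjusted p = 0.00318). All SPOP_CKI hearts exceeded all controls for these 3 of the 5 tested genes, beside 9.01% of all genes tested. The list median was 2.23, against −0.11 over all genes.

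The 3 procollagen N-proteinases, which remove the amino-terminal propeptide of fibrillar collagens, had no call. Adamts2 was at 951, 2868, 534, 3861 and 1000 in SPOP_CKI 1 to 5 and at 531 to 775 in controls, above all controls in every SPOP_CKI heart but SPOP_CKI 3 (difference 1.17, SE 0.47, adjusted p = 0.0938). It passed in edgeR (1.55, adjusted p = 0.0316), in DESeq2 (1.54, adjusted p = 0.00555), without SPOP_CKI 3 (1.52, adjusted p = 0.0150) and without the 3 libraries with Xist reads (1.77, adjusted p = 0.0100). Adamts3 and Adamts14 differed by 0.05 and −0.10 (adjusted p 0.935 and 0.879), and Adamts14 was at 0.84 with GC centring (adjusted p = 0.351). Of 10 tested genes in the list of other procollagen processing steps, 2 rose and 0 fell: P4ha1, a subunit of collagen prolyl hydroxylase (1.83, adjusted p = 0.00122), and Serpinh1, the collagen chaperone (1.25, adjusted p = 0.0126). Without SPOP_CKI 3, 4 of them were higher (beside 13.7% of all genes, and 10.0% with all libraries).

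Of the 9 other ADAMTS genes 6 were tested, with 1 higher and 1 lower, beside 10.0% and 12.3% of all genes. Adamts7 (ENSMUSG00000032363, chromosome 9, 90163069 to 90208071), an enzyme studied in vascular smooth muscle, was at 236, 90.9, 48.2, 85.4 and 265 in SPOP_CKI 1 to 5 and at 379, 311, 298, 334 and 269 in controls. The groups did not overlap, but SPOP_CKI 5 at 265 and control 5 at 269 nearly met. The difference was −1.41 (SE 0.42, adjusted p = 0.0326). The call was lost without any 1 of the 5 controls or without SPOP_CKI 2 or 4 (−1.46 to −1.29, adjusted p 0.0524 to 0.0785). It was also lost in edgeR (−1.11, adjusted p = 0.0713) and after GC centring (−0.83, adjusted p = 0.106). Adamts7 shares 122 exonic bases with Tbc1d2b on the opposite strand, which was at 181 to 556 in SPOP_CKI and 356 to 550 in controls.

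Adamts19 (ENSMUSG00000053441), a gene in which loss of function is known to cause heart valve disease, was at 69.6, 46.3, 80.6, 45.3 and 24.8 in SPOP_CKI 1 to 5 and at 17.0, 10.7, 4.53, 9.61 and 36.4 in controls. It was above all controls in 4 SPOP_CKI hearts, and SPOP_CKI 5 lay below control 5. The difference was 1.89 (SE 0.56, adjusted p = 0.0326), on low counts. The call was lost without control 1, 2, 3 or 4 or without SPOP_CKI 1, 2 or 4 (1.57 to 1.99, adjusted p 0.0532 to 0.0778). It was also lost after GC centring (1.55, adjusted p = 0.0693). Adamts6, at 105, 136, 143, 151 and 73.2 against 42.9 to 107, did not pass (0.72, SE 0.30, adjusted p = 0.106, and 0.0475 without SPOP_CKI 5). Adamts17 was at 9.94, 5.78, 0, 5.23 and 7.09 against 10.2 to 20.2, below all controls in each SPOP_CKI heart but on very few reads (−1.56, SE 0.72, adjusted p = 0.136, and −0.97 without SPOP_CKI 3). Adamts10 and Adamts12 differed by −0.11 and 0.39 (adjusted p 0.671 and 0.656), and Adamts12 passed without SPOP_CKI 3 (adjusted p = 0.0247). Adamts13, the enzyme that cleaves von Willebrand factor, Adamts16 and Adamts18 were at 0 to 9.58 in all libraries and were not tested.

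Of the 5 ADAMTS-like genes 2 were higher and 1 was lower, beside 10.0% and 12.3% of all genes, and all 3 calls were lost without control 1, 2, 3 or 4. Adamtsl2 (ENSMUSG00000036040, chromosome 2, 27079379 to 27108981), which encodes a binding partner of fibrillin and of latent TGF-beta binding proteins, was at 835, 1488, 494, 2663 and 466 in SPOP_CKI 1 to 5 and at 336, 360, 263, 222 and 475 in controls. SPOP_CKI 2 and 4 were highest, SPOP_CKI 1 and 3 also exceeded all controls, and SPOP_CKI 5 lay just under control 5. The difference was 1.56 (SE 0.45, adjusted p = 0.0286), and the call was lost without control 1, 2, 3 or 4 or without SPOP_CKI 2 (adjusted p 0.0533 to 0.0746). Adamtsl3 (ENSMUSG00000070469, chromosome 7, 82335694 to 82614450) was at 137, 245, 201, 294 and 292 against 104, 143, 128, 88.4 and 189, above all controls in SPOP_CKI 2 to 5. Its difference of 0.83 (SE 0.27, adjusted p = 0.0472) lost its call without control 1, 2, 3 or 4 or without SPOP_CKI 2, 4 or 5 (0.71 to 0.88, adjusted p 0.0753 to 0.115). The call was also lost with TMM scaling (adjusted p = 0.0504) and with no filter on low values (adjusted p = 0.0737).

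Adamtsl4 (ENSMUSG00000015850, chromosome 3, 95676201 to 95687917), a fibrillin-binding protein known from displacement of the eye lens when it is lost, was at 424, 360, 72.7, 389 and 458 in SPOP_CKI and at 873, 934, 746, 775 and 673 in controls. All SPOP_CKI hearts lay below all controls, with the lowest control 1.47-fold above the highest of them, and SPOP_CKI 3 lay far below the rest. The difference was −1.46 (SE 0.44, adjusted p = 0.0341). It was −0.97 without SPOP_CKI 3 (adjusted p = 6.79e-04) and −0.52 after GC centring (adjusted p = 0.0289). The call was lost without any 1 of the 5 controls, with differences of −1.52 to −1.40 (adjusted p 0.0531 to 0.0755). Adamtsl1 and Adamtsl5 differed by 0.33 and 0.25 (adjusted p 0.453 and 0.485), and Adamtsl5 passed without SPOP_CKI 3 (0.50, adjusted p = 0.0299) and with GC centring (1.19, adjusted p = 0.00481). Of 9 tested fibrillin and latent TGF-beta binding genes, 2 rose and 0 fell: Ltbp2 (3.14, adjusted p = 0.0370), at 127, 3294, 194, 3679 and 194 in SPOP_CKI 1 to 5 against 35.1 to 118, and the fibrillin gene Fbn2 (1.45, adjusted p = 0.00210). This list had 1 call without control 1, 2, 3 or 4 or without SPOP_CKI 4. With all libraries 10.0% of all genes were higher.

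Promoters of some called genes are shown, from windows outside the gene, to set the strongest fall beside the ADAMTS-like genes. Those of the other called genes are not reported here. The 250 bases before the start are given 5′ to 3′ with TATAAA and GGGCGG (or its complement CCGCCC) in capitals, for Timp4 at chr6:115252206-115252455 (minus strand), Adamtsl2 at chr2:27079129-27079378 (plus), Adamtsl3 at chr7:82335444-82335693 (plus) and Adamtsl4 at chr3:95687918-95688167 (minus).
Timp4: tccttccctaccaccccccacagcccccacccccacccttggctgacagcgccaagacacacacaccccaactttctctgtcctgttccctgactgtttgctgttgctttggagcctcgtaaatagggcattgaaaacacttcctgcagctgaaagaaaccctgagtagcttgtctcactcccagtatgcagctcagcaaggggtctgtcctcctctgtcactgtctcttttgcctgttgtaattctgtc
Adamtsl2: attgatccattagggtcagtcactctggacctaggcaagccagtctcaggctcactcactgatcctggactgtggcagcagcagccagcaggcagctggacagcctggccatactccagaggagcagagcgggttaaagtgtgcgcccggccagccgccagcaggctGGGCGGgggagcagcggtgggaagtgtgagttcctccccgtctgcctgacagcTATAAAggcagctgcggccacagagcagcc
Adamtsl3: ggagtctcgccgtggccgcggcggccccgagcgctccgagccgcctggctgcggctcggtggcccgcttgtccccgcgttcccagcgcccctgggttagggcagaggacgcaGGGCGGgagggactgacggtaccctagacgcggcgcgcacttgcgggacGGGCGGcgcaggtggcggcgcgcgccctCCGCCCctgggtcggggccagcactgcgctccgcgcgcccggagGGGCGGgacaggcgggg
Adamtsl4: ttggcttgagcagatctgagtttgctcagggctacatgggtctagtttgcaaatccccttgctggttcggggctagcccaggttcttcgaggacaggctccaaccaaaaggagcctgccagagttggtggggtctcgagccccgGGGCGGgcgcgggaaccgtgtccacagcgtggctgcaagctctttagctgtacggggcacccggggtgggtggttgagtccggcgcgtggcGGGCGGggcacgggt
The Timp4 window held none of the 3 motifs and 53.6% G or C. Adamtsl2 held TATAAA 30 bases before its start and 1 GGGCGG, Adamtsl3 held GGGCGG at 4 places with 80.0% G or C, and Adamtsl4 at 2 places with 64.4%.

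Across the family, SPOP_CKI 2 and 4, the hearts highest in Postn, had the most values above the controls. Of the 38 tested genes, 23 (60.5%) in SPOP_CKI 2 and 22 (57.9%) in SPOP_CKI 4 were above all 5 controls, beside 34.3% and 33.8% of all genes tested in these libraries. In SPOP_CKI 1, 3 and 5 the counts were 12, 7 and 10 (31.6%, 18.4% and 26.3%, beside 28.3%, 34.1% and 32.0%). SPOP_CKI 4 held the highest value of the 10 libraries for 11 genes (28.9%, beside 8.67% of all) and SPOP_CKI 2 for 10 (26.3%, beside 15.1%). SPOP_CKI 3 held the lowest for 17, beside 37.2% of all genes, and was at 0 for 8, among them Mmp9, Mmp12 and Mmp13, where 1 tested gene was at 0 in control 3 and none in the other 8 libraries. SPOP_CKI 3 had reads for only 13167 genes, and the share of all tested genes at 0 in it is not given. The zeros therefore cannot be read as particular to this family. Only Timp4, Adamts5, Adamtsl4, Mmp28, Adamts7, Mmp11 and Adamts17 (which passed the filter only through the controls) were below all controls in SPOP_CKI 2 and 4 as well as in the other 3 hearts. These are descriptions of single libraries, with no test.

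**Figure D4:**
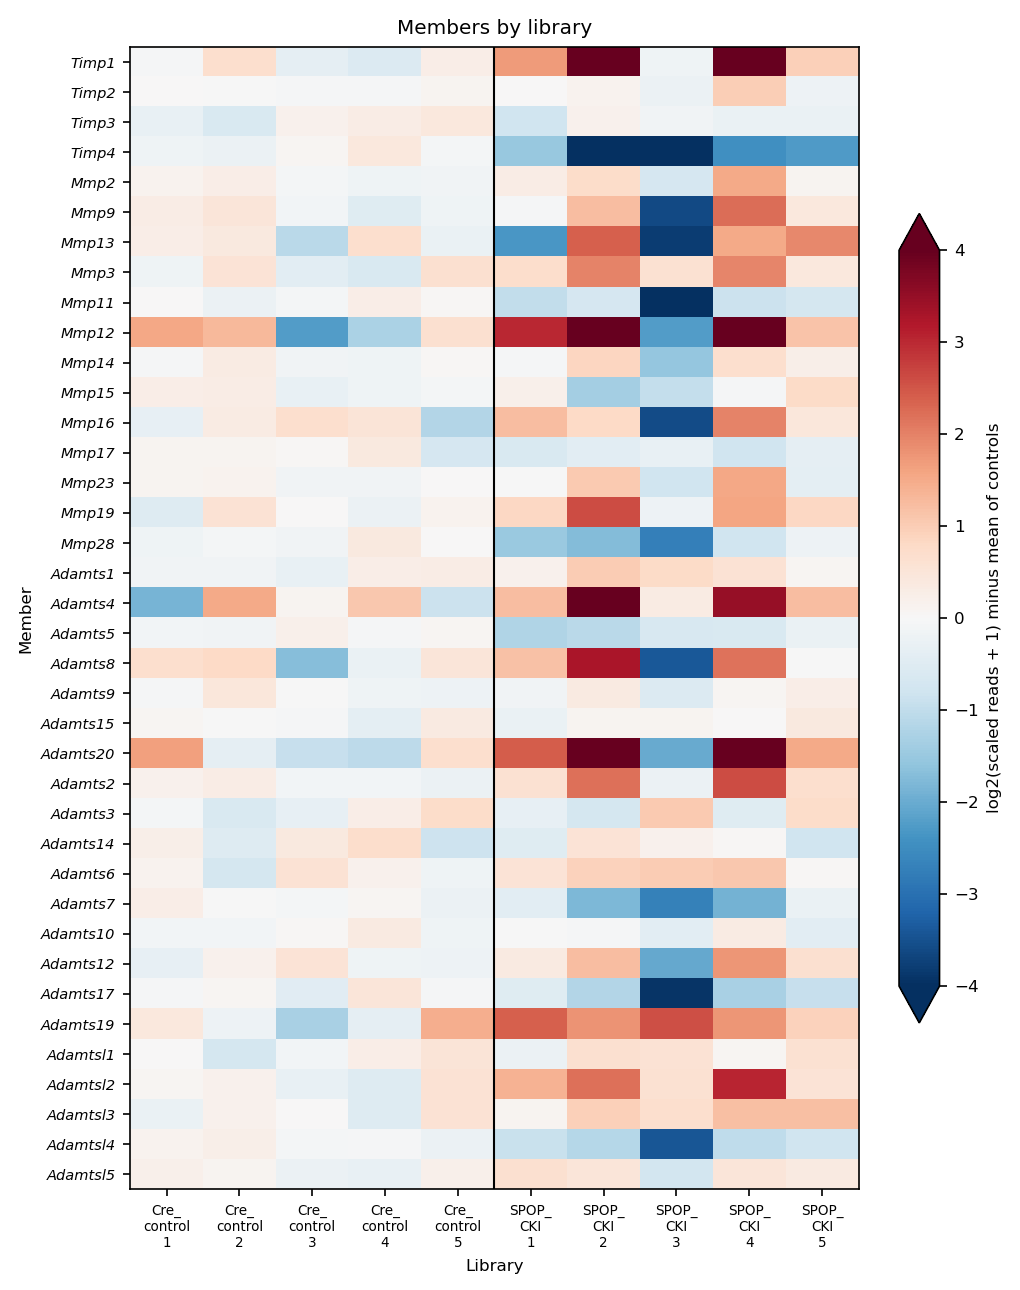
Log2(scaled reads + 1) minus the mean of the 5 controls (colour, limited to ±4) for the 38 tested genes (rows) in the 10 libraries (columns, controls to the left of the line). The red columns are SPOP_CKI 2 and 4, SPOP_CKI 3 has the most deep blue cells, and the row of Timp4 is blue in all 5 SPOP_CKI hearts.

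Markers of several cell types moved with these libraries. Of all genes tested, 10.0% were called higher and 12.3% lower. Summed activated fibroblast markers (7 genes, 3 of 6 tested higher, 2 to 4 with single libraries left out) were at 13242, 27927, 12266, 53921 and 7674 in SPOP_CKI 1 to 5 and at 2171 to 4044 in controls. Acta2 made up most of this sum in SPOP_CKI 1, 3 and 5, at 10292, 8273 and 5459. The 3 called genes were Postn, Meox1 and Acta2, whereas Fap, Comp and Cilp were not called. General fibroblast markers (1 of 10 higher, 3 without SPOP_CKI 3 and 2 without SPOP_CKI 1) were at 60070, 78409, 79409, 107045 and 53781 against 55117 to 72937. Most of this sum was Dcn, at 15123 to 42748 in SPOP_CKI, and Gsn, at 24977 to 28461. Col1a1, Col1a2, Mfap4, Pdgfra and Pdgfrl were highest in SPOP_CKI 2 and 4, whereas Tcf21, Dpt, Lum, Dcn and Gsn were not. Macrophage markers (2 of 8 higher, Adgre1 and Mrc1, and 1 lower, Cd163) were at 6250, 19470, 9119, 26957 and 6096 against 6459 to 10932. Only 1 of them was higher without any 1 control or without SPOP_CKI 2, 3 or 4. The largest part of this sum in every library was Lyz2, not called, at 1463 to 14264 against 2714 to 4414. Neutrophil markers (7 genes, all 3 tested higher, but 0 without control 1, 3 or 4 or SPOP_CKI 4 and 1 without SPOP_CKI 2) were at 172, 372, 319, 744 and 189 against 62.4 to 181, with Mpo at 0 to 6.10 and Ly6g at 0 to 2.61 in every library. Endothelial markers (4 of 7 lower) were at 15458 to 21712 against 24416 to 27873, with no overlap. Pericyte markers had 2 of 7 lower, at 20406 to 34729 against 26699 to 35132, and smooth muscle markers none of 7, at 14445 to 54465 against 35185 to 45135. Most of the pericyte sum was Rgs5, not called, at 12274 to 20448 against 16650 to 24178. Most of the smooth muscle sum was the single gene Des, at 11885 to 52020 in SPOP_CKI and 31674 to 42201 in controls. Epicardial and adipose markers had no call, at 69.2 to 404 against 125 to 291 and at 0 to 98.5 against 5.36 to 136. SPOP_CKI 2 and 4, the highest for Timp1, Mmp2, Mmp3, Mmp12, Adamts2, Adamts4 and Adamtsl2, were also the highest for activated fibroblast, macrophage and neutrophil markers. The part of these cell types in the results was not tested.

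The rest of the protease system was read from further lists, beside 10.0% of all genes called higher and 12.3% lower. Of 10 tested ADAM sheddases, the membrane-bound relatives that release receptors and growth factors, 3 rose and 0 fell. Adam17, which releases tumour necrosis factor and is inhibited by Timp3, was at 939, 1337, 1248, 1357 and 1288 in SPOP_CKI 1 to 5 and at 466 to 616 in controls (difference 1.22, SE 0.15, adjusted p = 5.44e-04). All SPOP_CKI hearts were well above all controls, SPOP_CKI 3 included. Adam9 (0.99, adjusted p = 0.0110) and Adam19 (0.85, adjusted p = 0.0252) also rose. Of 9 tested genes of plasmin and precursor activation 1 rose, Pcsk5, a proprotein convertase (0.90, adjusted p = 0.0301; the list had 0 calls without control 1, 3, 4 or 5 or without SPOP_CKI 2 or 4), and Serpine2, an inhibitor of plasminogen activators, stood at 0.88 (adjusted p = 0.0630). Of 8 other inhibitors and regulators 1 fell, Spock2, a testican proteoglycan, at 566, 98.3, 63.1, 143 and 583 against 1185 to 1697 (difference −2.88, SE 0.57, adjusted p = 0.00594), and Bsg, the metalloproteinase inducer basigin, stood at −0.62 (adjusted p = 0.0600). That list had 2 calls lower without SPOP_CKI 3, 4 or 5.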

How the data were processed

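Genotype and title in the labels gave the 2 groups of 5 libraries. The labels say nothing of litters or batches, and p-values cover only the spread among libraries, part of which may be technical. Titles number the libraries as repeats. Each group holds libraries with and without reads of Y-linked genes, so each holds more than 1 animal. Per the submitters' processing notes, the authors counted reads with featureCounts 1.5.0-p3 and used DESeq2 1.20.0 on mm10; the sources used here do not give the aligner, annotation release or strand setting. Each library column holds a read signal that the authors scaled by a size factor; dividing it by the value of 1 read gave whole reads for 100% of values (tolerance 0.001). The log2 fold changes, p-values and adjusted p-values deposited by the authors were not used for any value in the text, and the deposited gene lengths gave levels per kilobase.

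The test was limma 3.58.1 (trend, robust; R 4.3.3) on log2(value + 1), two-sided, genotype only, over 14212 genes (10 scaled reads or more in 5 or more libraries), with Benjamini-Hochberg adjustment over all of them. A fold is the converted log2 difference unless a ratio of means is named. The test was checked on simulated data. The 46 genes, the roles and the lists were chosen with earlier results of these data known. Named are all called genes, all Timp genes, Mmp2, Mmp3, Mmp9, Mmp14, up to 6 genes called on recovered reads alone, and from each pathway list up to 4 called genes or the smallest p. Coordinates are those of the deposited table; overlaps come from GENCODE M21, and some are not reported here. Alternatives were edgeR 4.0.16 and DESeq2 1.42.0 on recovered reads, TMM, quantile normalization, pseudocounts of 0.5 and 5, other filters, array weights, GC centring, a replicate block and leaving out libraries.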

Additional observations from a re-analysis of the deposited data

Results flagged for a closer look

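Among 40 groups of 5 libraries examined for 20 of the genes, a gap between an extreme library and its nearest neighbour was large for the range of its group 1 time on the log2(value + 1) scale and 3 times on the scaled reads themselves. Adamtsl4 was at 72.7 scaled reads in SPOP_CKI 3, and the gap took 0.87 of the range of the 5 SPOP_CKI hearts on the log2(value + 1) scale and 0.75 on the scaled reads. Timp1 at 7387 in SPOP_CKI 2 (0.76) and Timp2 at 6215 in SPOP_CKI 4 (0.77) were picked out on the scaled reads alone. About 1 in 20 such groups is picked out by chance. SPOP_CKI 3 is also the library with reads for 13167 genes, and without it Adamtsl4 remained lower (−0.97, limma adjusted p = 6.79e-04).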

How the results depend on the processing

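The number of genes called higher, 3 with all libraries, was 2 with TMM or with no filter on low values (beside 9.51% and 4.36% of all genes), 7 with edgeR (11.8%), 10 with DESeq2 (11.7%), 9 with quantile normalization (13.2%), 14 with array weights (17.1%), 5 with GC centring (8.95%), 11 without the libraries with Xist reads (13.9%) and 0 to 12 with single libraries left out (6.36% to 13.7%). The number called lower, 5 with all libraries, was 3 with GC centring (8.79%), 4 with edgeR or no filter (10.4% and 6.15%) and 2 to 6 with single libraries left out (7.39% to 17.4%). The cause was not tested. Timp4 (log2 fold change −3.39 to −2.55) and Adamts5 (−1.01 to −0.63) were called in all 22 alternatives. Differences near 0 turned sign for Timp2 (−0.06 without SPOP_CKI 4, up to 0.24 in the other leave-one-out fits), for Mmp9 (−0.12 with a pseudocount of 0.5, and −0.50 to 0.96 over the leave-one-out fits) and for Mmp14 (−0.17 to 0.44 over the leave-one-out fits). The Timp1 share in controls was 0.477% without division by gene length against 2.92% with it. The Timp4 shares moved by less than 1 SD, and the Spop difference kept its side under every alternative run for it. Quantile normalization moved the median of all genes from −0.11 to 0.03 on the log2 scale, and edgeR to 0.02.

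Deviations of same-numbered libraries correlated at 0.11, 0.10, 0.16, 0.08 and 0.03, and not every library correlated best with its own number, so the libraries were taken to share a number only. With the replicate number as a block, 2 genes were higher (Adamts4 and Adamtsl3, beside 9.22% of all genes) and 5 lower (beside 11.5%). Depth limits the genes under about 10 scaled reads, where 1 read is worth 0.826 to 1.18, and 8 of the 46 were not tested for that reason.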
